A study of Mus musculus with 80 samples.

Results

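Microglia were isolated from adult mouse brain with the MACSQuant Tyto, a cartridge sorter that diverts fluorescent cells with a valve inside a closed chip, and the RNA of the sorted cells (Tyto-Input) was compared with the RNA of the unsorted brain cell suspension (Cell-Input). The comparison took the 5 Tyto-Input libraries (mice 991, 69, 822, 823, and 945) and the 4 Cell-Input libraries (mice 946, 947, 948, and 949) by the sort method and fraction that their labels give, 9 of the 80 libraries of the series. All genes entered it, and 15076 of the 15919 listed genes passed the filter on low counts and were tested. The study set tissue, cell suspension, and microglia from several sort methods side by side, each before and after a pull-down of tagged ribosomes (TRAP). It asked how far each sort purifies microglial RNA and what the preparation does to the cells.

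All 9 mice carried Cx3cr1(Jung)-cre/Ert2+;NuTRAP+. In these mice tamoxifen switches on, in *Cx3cr1*-expressing cells, a ribosomal protein tagged with eGFP and a tagged nuclear envelope protein. Tamoxifen was injected into the peritoneum daily for 5 days at 100 mg/kg at about 3 months of age in both groups, and brains were taken at 5 to 8 months. The Cell group was dissociated with enzymes and by mechanical force and was not sorted. The Tyto group went through the same dissociation and was then sorted on CD11b+CD45+eGFP+ cells. Input is the RNA of 100 microlitres of supernatant, kept from the centrifuged lysate before the pull-down. Libraries were made from its poly(A) RNA. The *Cx3cr1* promoter is also active in macrophages at the borders of the brain, so the gate does not separate these from microglia. Cell-Input held 2 male and 2 female mice and Tyto-Input 4 males and 1 female, and in 9 of 9 libraries the sex-linked genes matched the recorded sex. No mouse gave both a Tyto-Input and a Cell-Input library, so mouse and preparation cannot be told apart from the sort. The p-values rest on the spread between libraries within groups, estimated over 20 Input libraries that include the other sort methods. Some mice gave libraries to several of those groups and were treated as separate.

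Microglia are the resident macrophages of the brain parenchyma. They depend on CSF1R signalling for survival and on TGF-beta for their identity, and they sense their surroundings through purinergic, chemokine, Fc, and pattern recognition receptors. They are a minority among the cells of a dissociated brain, next to neurons, astrocytes, oligodendrocytes, and the cells of the vessels, so a sort that works raises their transcripts and lowers those of every other cell type. Enzymatic dissociation is known to induce immediate-early genes and cytokines in microglia. In bulk libraries such as these, fewer cells of a type and less RNA per cell cannot be told apart.

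Library totals ranged from 12940459 to 16332332 counts (median 14574016) in Cell-Input and from 11300738 to 16223660 (median 14024401) in Tyto-Input. Levels are given as CPM, a gene's count per size of its library after TMM scaling, which assumes that most genes keep their level. Between libraries of a group, log2 CPM correlated across genes at 0.984 to 0.991 in Cell-Input and 0.986 to 0.993 in Tyto-Input. A gene was called when edgeR's quasi-likelihood test gave an adjusted p under 0.1 and the fold change was above 2.

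The sorted cells differed from the suspension in 52.6% of the tested genes, and the falls were larger than the rises. Of 15076 genes, 7929 were called, with 2989 higher in Tyto-Input (19.8%) and 4940 lower (32.8%). These shares are the background for the list counts in Input that follow. The median log2 fold change of the called genes was 1.66 among those higher and -4.34 among those lower. Of the higher genes, 1050 rose above 4-fold, 129 above 8-fold, and 15 above 16-fold. Of the lower genes, 4051 fell by more than 4-fold, 2774 by more than 16-fold, and 1738 by more than 32-fold. The 2 groups of libraries did not overlap in 11568 genes (76.7%), of which 5674 were higher (37.6%) and 5894 lower (39.1%) in every Tyto library. The filter on low counts keeps genes detected in the suspension alone, and these can only fall. With at least 10 counts in every sample instead, 1621 genes were called higher and 1794 lower (47.5% of the calls higher).

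The genes called on these libraries also took different shares of the counts, which their selection fixes in direction. Genes called higher took 18.6% to 20.3% of the counts of a Cell-Input library and 55.5% to 56.8% of a Tyto-Input library. Genes called lower took 33.9% to 35.4% in Cell-Input and 2.7% to 3.4% in Tyto-Input. The zero point of the log2 scale depended on the scaling. When the libraries were scaled by DESeq2's size factors, the median of all genes moved from 0.03 to -0.29, and the split became 2073 higher and 5453 lower (27.5% of the calls higher, against 37.7% with TMM).

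The genes of both surface proteins used for the sort, and those whose protein carries a NuTRAP tag, rose in the sorted cells. *Itgam*, which encodes CD11b, lay at 272, 334, 324, and 320 CPM in Cell-Input (mice 946 to 949) and at 2309, 2635, 2234, 2045, and 2444 CPM in Tyto-Input (mice 991, 69, 822, 823, and 945). *Ptprc*, which encodes CD45, lay at 58.8, 66.3, 70.5, and 67.4 CPM in Cell-Input and at 462, 481, 511, 473, and 481 CPM in Tyto-Input. The groups did not overlap in either gene, and the spread within each group was small beside the difference. The log2 fold change was 2.90 ± 0.13 (SE) for *Itgam* (adjusted p = 1.34e-13, edgeR) and 2.87 ± 0.08 for *Ptprc* (adjusted p = 3.23e-15, edgeR). *Rangap1* and *Rpl10a*, whose counts cannot separate the endogenous gene from the transgene, had log2 fold changes of 1.88 and 1.39.

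Genes of homeostatic microglia rose together. All 22 of the list were called higher, against 19.8% of all tested genes, with a median log2 fold change of 2.64 and a range from 1.80 to 3.21. Summed over the list, they stood at 9220 to 12068 CPM in Cell-Input and at 61997 to 71278 CPM in Tyto-Input, 6.11-fold higher in the mean. They held 1.19% to 1.47% of the counts of a Cell-Input library and 5.91% to 6.73% of a Tyto-Input library.

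*Tmem119* (mm10 chr5:113793729-113800352, minus strand), a membrane protein that marks microglia, lay at 424, 626, 603, and 581 CPM in Cell-Input and at 3372, 3005, 2900, 3103, and 3150 CPM in Tyto-Input, with a log2 fold change of 2.48 ± 0.17 (SE, adjusted p = 6.45e-11, edgeR). *P2ry12* (chr3:59216271-59262831, minus strand), the ADP receptor that guides microglial processes, lay at 345, 485, 473, and 424 CPM in Cell-Input and at 3486, 3142, 3024, 2519, and 3655 CPM in Tyto-Input, with a log2 fold change of 2.87 ± 0.20 (adjusted p = 6.51e-11, edgeR). *Cx3cr1* (chr9:120048683-120068296, minus strand), the fractalkine receptor and the gene that drives the Cre, lay at 379, 494, 535, and 477 CPM in Cell-Input and at 3969, 3540, 3714, 3214, and 4125 CPM in Tyto-Input, with a log2 fold change of 2.98 ± 0.14 (adjusted p = 2.81e-13, edgeR). In each of these genes the lowest Tyto library was above the highest Cell library, and mouse 946 was the lowest of the 4 suspensions. The smallest rise in the list was that of *Mertk*, a receptor for the removal of dying cells that astrocytes also express, at 1.80. The largest was that of *P2ry13*, another ADP receptor, at 3.21, from 117 to 180 CPM in Cell-Input to 1131 to 1670 CPM in Tyto-Input.

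**Figure D1:**
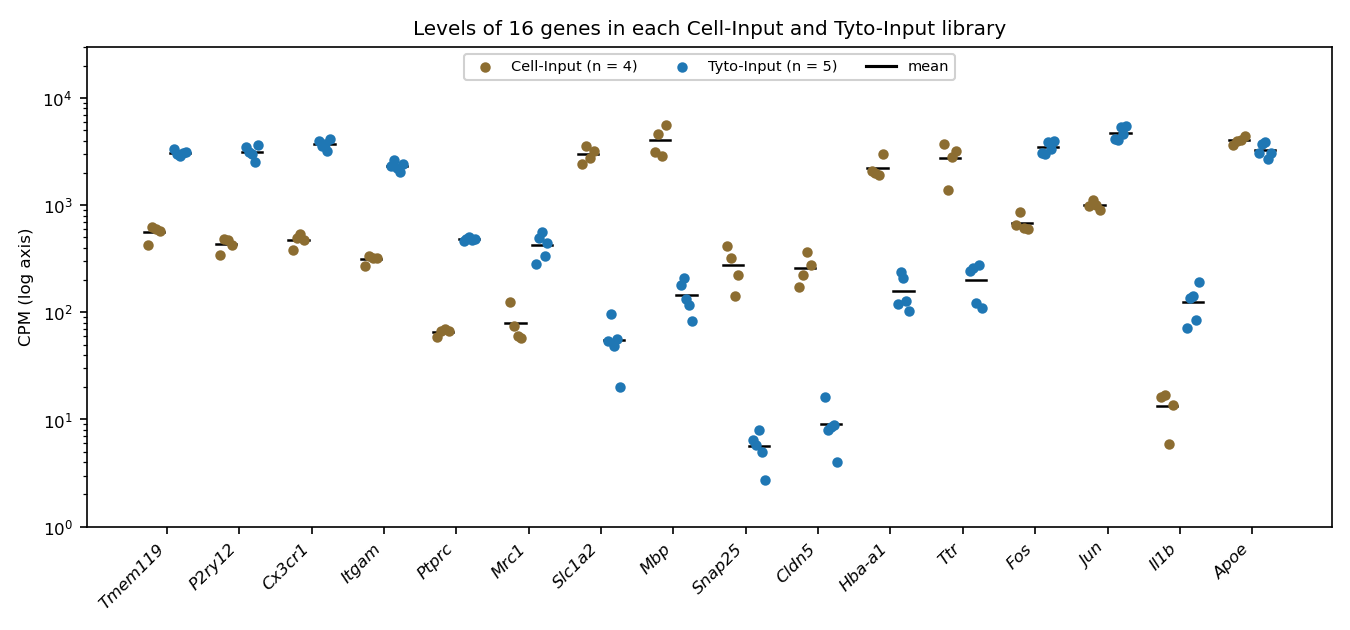
CPM (log axis) of 16 genes in each of the 4 Cell-Input libraries (brown) and 5 Tyto-Input libraries (blue), with the group mean as a bar. *Tmem119*, *P2ry12*, *Cx3cr1*, *Itgam*, *Ptprc*, *Mrc1*, *Fos*, *Jun*, and *Il1b* sit higher in every Tyto library. *Slc1a2*, *Mbp*, *Snap25*, *Cldn5*, *Hba-a1*, and *Ttr* sit lower in every Tyto library, and the groups overlap only in *Apoe*.

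The transcription factors of the microglial lineage rose too, 9 of 9 tested being called higher with a median of 2.65. They include *Sfpi1*, the older symbol of the gene for PU.1, at 44 to 59 CPM in Cell-Input and 382 to 466 CPM in Tyto-Input, a log2 fold change of 3.00 ± 0.12 (adjusted p = 3.99e-14, edgeR). *Irf8*, a partner of PU.1, changed by 2.92, and *Sall1*, a factor particular to microglia among macrophages, by 2.65.

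The promoters of 2 homeostatic genes are shown because PU.1 binds a purine-rich core, GAGGAAGT, and these promoters hold it. They are the RefSeq sequences (GRCm38.p6) from 250 bases before to 50 bases after the start of the gene, 5′ to 3′ on the strand of the gene, with the core in capitals. In both it reads on the opposite strand, as ACTTCCTC, beginning at base 56 in *C1qc* (chr4:136892865-136893164, minus strand) and at base 249 in *Ctss* (chr3:95526536-95526835, plus strand), where it lies across the start of the transcript.
C1qc: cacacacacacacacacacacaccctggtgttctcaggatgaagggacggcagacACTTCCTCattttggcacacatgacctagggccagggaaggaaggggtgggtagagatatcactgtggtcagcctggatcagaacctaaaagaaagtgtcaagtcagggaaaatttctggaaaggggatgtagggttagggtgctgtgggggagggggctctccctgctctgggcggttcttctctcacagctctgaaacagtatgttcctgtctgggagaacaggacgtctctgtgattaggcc
Ctss: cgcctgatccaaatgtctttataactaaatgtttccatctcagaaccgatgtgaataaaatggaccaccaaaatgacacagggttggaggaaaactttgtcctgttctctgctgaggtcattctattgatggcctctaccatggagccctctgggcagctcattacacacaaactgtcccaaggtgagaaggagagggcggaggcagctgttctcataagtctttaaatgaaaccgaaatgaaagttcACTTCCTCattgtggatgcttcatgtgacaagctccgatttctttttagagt

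*C1qc*, a chain of the first complement component, lay at 490, 630, 613, and 625 CPM in Cell-Input and at 3463, 3404, 3266, 3092, and 3388 CPM in Tyto-Input, a log2 fold change of 2.50 ± 0.14 (SE, adjusted p = 2.47e-12, edgeR). *Ctss*, the lysosomal protease cathepsin S, lay at 872, 1053, 994, and 1030 CPM in Cell-Input and at 5901, 6106, 5927, 5213, and 5880 CPM in Tyto-Input, a log2 fold change of 2.56 ± 0.09 (adjusted p = 9.22e-15, edgeR). The groups were far apart in both genes. A promoter window was at hand for 15 of the 22 homeostatic genes, and 2 of the 15 held the core on either strand (13.3%). The core was found in 125 of 2381 windows of genes called higher (5.25%), in 51 of 3727 of genes called lower (1.37%), in 349 of 11906 of the tested genes (2.93%), and in 887 of 27025 windows of all genes in the table (3.28%). These shares describe letters in a window and not binding.

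Surface receptors by which microglia sense their surroundings rose by about as much. All 7 purinergic genes were called higher (median 2.71), among them *P2ry6*, a receptor for UDP that starts phagocytosis, at 2.71, and *P2rx4*, an ATP-gated channel, with the smallest rise at 1.51. Of 16 pattern recognition and Fc receptors 15 were called higher (median 2.72), with *Tlr2*, a receptor for bacterial lipoproteins, at 3.01 ± 0.10 (adjusted p = 5.39e-15, edgeR) and *Clec7a*, the beta-glucan receptor dectin-1, at 3.33. *Tlr3*, the receptor for double-stranded RNA that astrocytes express too, had a log2 fold change of 0.76, short of the 2-fold limit. The Fc receptor genes are similar in sequence, and how reads shared between such copies were assigned is not given in the sources used here.

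Complement genes went both ways. Of 14 tested, 9 were called higher and 3 lower, against 19.8% and 32.8% of all tested genes. *C1qa* and *C1qb* had log2 fold changes of 2.48 and 2.38, and *C3ar1*, a receptor for a C3 fragment, of 2.81. The 3 that fell were inhibitors, namely *Cd59a*, which blocks the pore, at -4.42, *Serping1*, which blocks the C1 proteases, at -3.53, and *Cd55*, which speeds the decay of the convertase, at -2.31. *C3* itself was low in both groups, at 7.46 to 9.85 CPM in Cell-Input and 13.4 to 30.5 CPM in Tyto-Input (1.16 ± 0.40, adjusted p = 0.0133, edgeR).

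Most lysosomal genes and all tested antigen presentation genes rose. Of 19 lysosomal genes 17 were called higher (median 2.10), from *Cd68*, a lysosomal membrane protein of macrophages, at 2.80 to *Psap*, which encodes the saposins, at 1.22, and the 2 not called were *Lamp1* (0.81) and *Npc1* (0.63), both used by many cell types. All 7 MHC class I genes (median 1.72) and all 6 MHC class II genes tested (median 1.88) were called higher, *H2-K1* (1.30) losing its call with DESeq2's size factors (0.98). *B2m*, the light chain of class I, lay at 341 to 408 CPM in Cell-Input and 1292 to 1482 CPM in Tyto-Input. *Cd74*, the invariant chain of class II, lay at 104 to 203 CPM in Cell-Input and 265 to 539 CPM in Tyto-Input, and its mouse 991 value sat nearest to the suspension.

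The 10 genes with the largest rise among those with at least 50 CPM in the higher group and no overlap were *Cd180*, *Gm3002*, *I830077J02Rik*, *Gpr84*, *Clec7a*, *Gm10790*, *Slc15a3*, *Il1b*, *Cd83*, and *P2ry13*, with log2 fold changes from 3.21 to 3.72. *Cd180*, a Toll-like receptor homologue that associates with MD-1, led them. It lay at 23.8, 21.6, 28.7, and 23.7 CPM in Cell-Input and at 341, 300, 319, 214, and 435 CPM in Tyto-Input, 13.2-fold higher (3.72 ± 0.36, adjusted p = 1.40e-08, edgeR). The groups did not overlap, and mouse 823 was the lowest of the sorted libraries. *Gpr84*, a receptor for medium-chain fatty acids that inflammatory stimuli induce, rose from 13.2 to 20.02 CPM in Cell-Input to 105 to 212 CPM in Tyto-Input. *Slc15a3*, a lysosomal histidine and peptide transporter, had a log2 fold change of 3.25, and *Cd83*, an activation marker of antigen-presenting cells, of 3.24. *Gm3002* belongs to a family of near-identical copies and its value, which ranged from 47.7 to 436 CPM in Tyto-Input, is uncertain.

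Transcripts of other brain cells fell in the sorted cells. Every tested member of the lists for astrocytes (19), myelinating oligodendrocytes (18), oligodendrocyte progenitors (10), neurons (20), endothelial cells (18), pericytes and smooth muscle (9), fibroblasts (7), ependymal cells (7), and choroid plexus (7) was called lower, against 32.8% of all tested genes. The list medians ran from -3.42 for fibroblasts through -4.87 for endothelial cells, -5.51 for neurons and for myelinating oligodendrocytes, and -5.89 for astrocytes to -6.45 for ependymal cells. None of these lists had a member in which a Tyto library overlapped with a Cell library.

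*Slc1a2*, the main glutamate transporter of astrocytes, lay at 2442, 3544, 2786, and 3238 CPM in Cell-Input and at 53.96, 97.5, 48.1, 56.5, and 20.2 CPM in Tyto-Input, 54.4-fold lower (-5.77 ± 0.41, adjusted p = 1.04e-10, edgeR). *Gjb6*, the astrocytic connexin 30, lay at 228, 319, 330, and 324 CPM in Cell-Input and at 2.70, 4.55, 2.25, 2.98, and 0.467 CPM in Tyto-Input, with a log2 fold change of -6.87 ± 0.40 (adjusted p = 6.58e-12, edgeR). Mouse 69 carried the most and mouse 945 the least of both genes among the sorted libraries. *Slc1a3*, the other glial glutamate transporter, fell the least of its list, by 3.37 on the log2 scale, and kept 150 to 247 CPM in Tyto-Input.

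*Mbp*, myelin basic protein, lay at 3121, 4667, 2865, and 5622 CPM in Cell-Input and at 180, 210, 132, 118, and 83.2 CPM in Tyto-Input (-4.81 ± 0.32, adjusted p = 5.23e-11, edgeR). *Cnp*, an enzyme of the myelin sheath, fell the least of the list, by 3.34 on the log2 scale, from 984 to 1596 CPM in Cell-Input to 100.1 to 168 CPM in Tyto-Input.

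*Snap25*, a protein of the synaptic vesicle fusion machinery, lay at 418, 322, 142, and 222 CPM in Cell-Input and at 6.49, 5.82, 8.001, 4.96, and 2.72 CPM in Tyto-Input (-5.62 ± 0.31, adjusted p = 2.86e-12, edgeR). The neuronal markers varied more among suspensions than the microglial ones, with a summed level of 842 to 1749 CPM over 20 genes. *Cldn5*, the tight junction protein of the blood-brain barrier, lay at 172, 222, 363, and 275 CPM in Cell-Input and at 16.2, 7.91, 8.59, 8.86, and 4.05 CPM in Tyto-Input (-4.81 ± 0.59, adjusted p = 3.45e-07, edgeR). *Pecam1*, an adhesion molecule that leukocytes share with endothelium, fell the least of the endothelial list, by 1.31, and kept 55.9 to 77.4 CPM. *Kdr*, the VEGF receptor, came next at -2.08. *Ccdc153*, a gene of motile cilia, had the largest fall of any list member, from 28.9 to 46.7 CPM in Cell-Input to 0 in 3 Tyto libraries and 0.167 and 0.397 CPM in the other 2. *Ttr*, the carrier protein that choroid plexus secretes in bulk, lay at 3705, 1394, 2846, and 3215 CPM in Cell-Input and at 243, 261, 123, 275, and 111 CPM in Tyto-Input, and varied in both groups.

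The 10 genes with the largest fall under the same rule of level and overlap were *Kcnn2*, *Nov*, *Cadm3*, *Fam20a*, *Gjb6*, *Dio2*, *Gdf10*, *Cbln3*, *Lhx2*, and *Elovl2*, with log2 fold changes from -7.40 to -6.54. *Dio2*, the astrocytic enzyme that activates thyroid hormone, went from 136 to 218 CPM in Cell-Input to 0.622 to 2.73 CPM in Tyto-Input. *Gdf10*, a growth factor of Bergmann glia, went from 146 to 193 CPM to 0.0834 to 3.98 CPM, and *Cbln3*, a synaptic protein of cerebellar granule cells, from 27.7 to 111 CPM to 0.364 to 1.16 CPM.

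What remained of the transcripts of each list is given as its summed CPM in each Tyto library over the Cell-Input mean. These sums do not count remaining cells, because members that fell least, such as *Slc1a3*, *Cnp*, and *Pecam1*, weigh in them. *Cnp* had a mean of 124 CPM in Tyto-Input, where the sum of its list had a mean of 537 CPM. Astrocyte genes remained at 1.43% to 3.92%, oligodendrocyte progenitor genes at 0.926% to 3.10%, and ependymal genes at 1.23% to 2.76%. Myelinating oligodendrocyte genes remained at 2.41% to 6.20% and neuronal genes at 3.21% to 4.89%. Endothelial genes remained at 4.80% to 8.46%, fibroblast genes at 4.15% to 8.48%, and choroid plexus genes at 3.49% to 8.79%. Mouse 69 was the highest of the 5 sorted libraries in astrocyte, oligodendrocyte, progenitor, pericyte, fibroblast, and ependymal genes, and mouse 945 was the lowest in 7 of the 9 lists. Mouse 991 was the highest in endothelial genes and mouse 822 in neuronal genes.

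**Figure D2:**
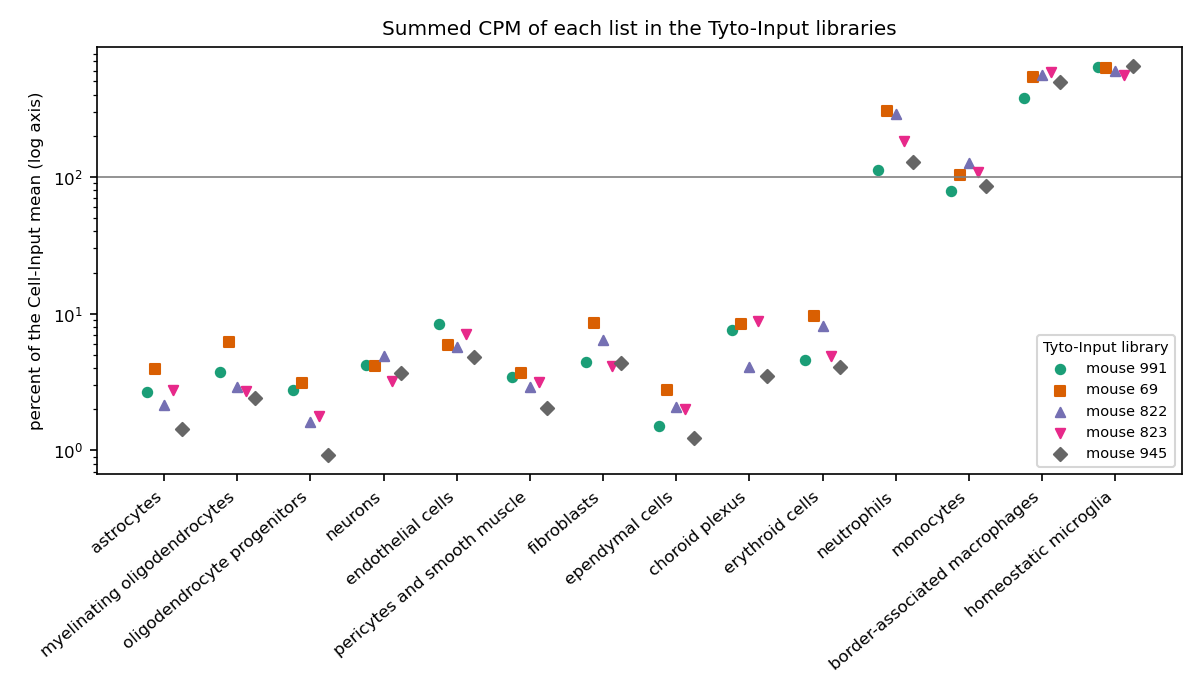
Summed CPM of 14 gene lists in each Tyto-Input library, as a percent of the Cell-Input mean (log axis, 100% marked by a line). Each symbol is 1 mouse. The lists of neural, vascular, and erythroid cells sit below 10%, neutrophil and monocyte lists near or above 100%, and border-associated macrophage and homeostatic microglial lists between 381% and 644%.

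Blood cells divided. Erythroid genes fell, 6 of 6 being called lower with a median of -4.29. *Hba-a1*, an alpha globin, lay at 2066, 1996, 1906, and 2983 CPM in Cell-Input and at 119, 237, 207, 127, and 103 CPM in Tyto-Input (-3.82 ± 0.82, adjusted p = 2.90e-04, edgeR), and as 1 of a pair of near-identical genes its counts may be split with *Hba-a2*. Of 11 neutrophil genes tested, 3 were called higher (*Camp*, *Mmp9*, and *S100a9*) and 1 lower (*Mpo*), against 19.8% and 32.8% of all tested genes. The groups did not overlap in 3 of the 11, against 76.7% of all tested genes. *Camp* had 2 to 24 counts in the Cell-Input libraries. *S100a8*, an antimicrobial protein of neutrophils, lay at 4.44, 8.57, 4.91, and 6.47 CPM in Cell-Input and at 5.01, 21.1, 19.4, 10.4, and 8.25 CPM in Tyto-Input. Its groups overlapped and it was not called (1.06 ± 0.61, adjusted p = 0.118, edgeR), although mice 69 and 822 stood above every suspension. The summed neutrophil level was 112% to 303% of the Cell-Input mean, highest in mice 69 and 822 as well. *S100a9* was no longer called without Cell-Input replicate 1 (1.16) or 3 (1.21) or without Tyto-Input replicate 2 (1.07) or 3 (0.96).

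Monocyte genes went both ways. *Ccr2*, the chemokine receptor of inflammatory monocytes, rose from 2.90 to 5.54 CPM in Cell-Input to 11.1 to 17.8 CPM in Tyto-Input (1.68 ± 0.24, adjusted p = 2.07e-06, edgeR). *Ly6c2*, the Ly6C antigen of the same cells, fell from 8.59 to 17.0 CPM to 0.545 to 1.85 CPM (-3.61 ± 0.57, adjusted p = 1.01e-05, edgeR), and it is close in sequence to *Ly6c1* of endothelium, which fell too (-5.44). The summed monocyte level, 79.4% to 128% of the Cell-Input mean, sums over genes that changed in opposite directions.

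Most lymphocyte genes fell. Of 8 T and NK cell genes 6 were called lower, 1 higher, and 1 was not called (*Cd3d*, -0.90 ± 0.92, adjusted p = 0.376, edgeR), *Cd2* being at 0 in every Tyto library against a mean of 0.912 CPM in Cell-Input. The gene called higher was *Il7r*, the interleukin-7 receptor, at 7.08, 11.1, 7.44, and 6.36 CPM in Cell-Input and at 32.9, 32.7, 29.3, 31.5, and 36.6 CPM in Tyto-Input (2.03 ± 0.19, adjusted p = 5.23e-09, edgeR). Of 4 B cell genes 3 were called lower, *Cd79a* and *Faim3* among them, whereas *Cd79b*, which encodes the beta chain of the B cell receptor complex, rose from 2.58, 3.24, 3.31, and 4.33 CPM to 21.3, 21.1, 13.8, 11.8, and 22.6 CPM (2.42 ± 0.21, adjusted p = 2.49e-09, edgeR). In Tyto-Input *Il7r* held 96.1% of the summed level of the T and NK cell list and *Cd79b* 96.3% of that of the B cell list.

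Border-associated macrophage genes rose. All 9 were called higher with a median of 2.28, and their summed level went from 402 to 605 CPM in Cell-Input to 1790 to 2734 CPM in Tyto-Input. *Mrc1*, the mannose receptor, lay at 125, 75.1, 60, and 57.8 CPM in Cell-Input and at 283, 492, 561, 338, and 440 CPM in Tyto-Input (2.41 ± 0.30, adjusted p = 5.43e-07, edgeR). *Lyve1*, the hyaluronan receptor of a perivascular subset, lay at 34.5, 21.6, 13.7, and 13 CPM in Cell-Input and at 37.8, 46.9, 44.8, 51.6, and 40.4 CPM in Tyto-Input, the smallest rise of the list (1.10 ± 0.41, adjusted p = 0.0186, edgeR). Its groups were separate by a small margin. *Lyve1* lost its call without Cell-Input replicate 3 (0.95) or 4 (0.94), without Tyto-Input replicate 2 (0.98), and with DESeq2's size factors (0.78).

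**Figure D3:**
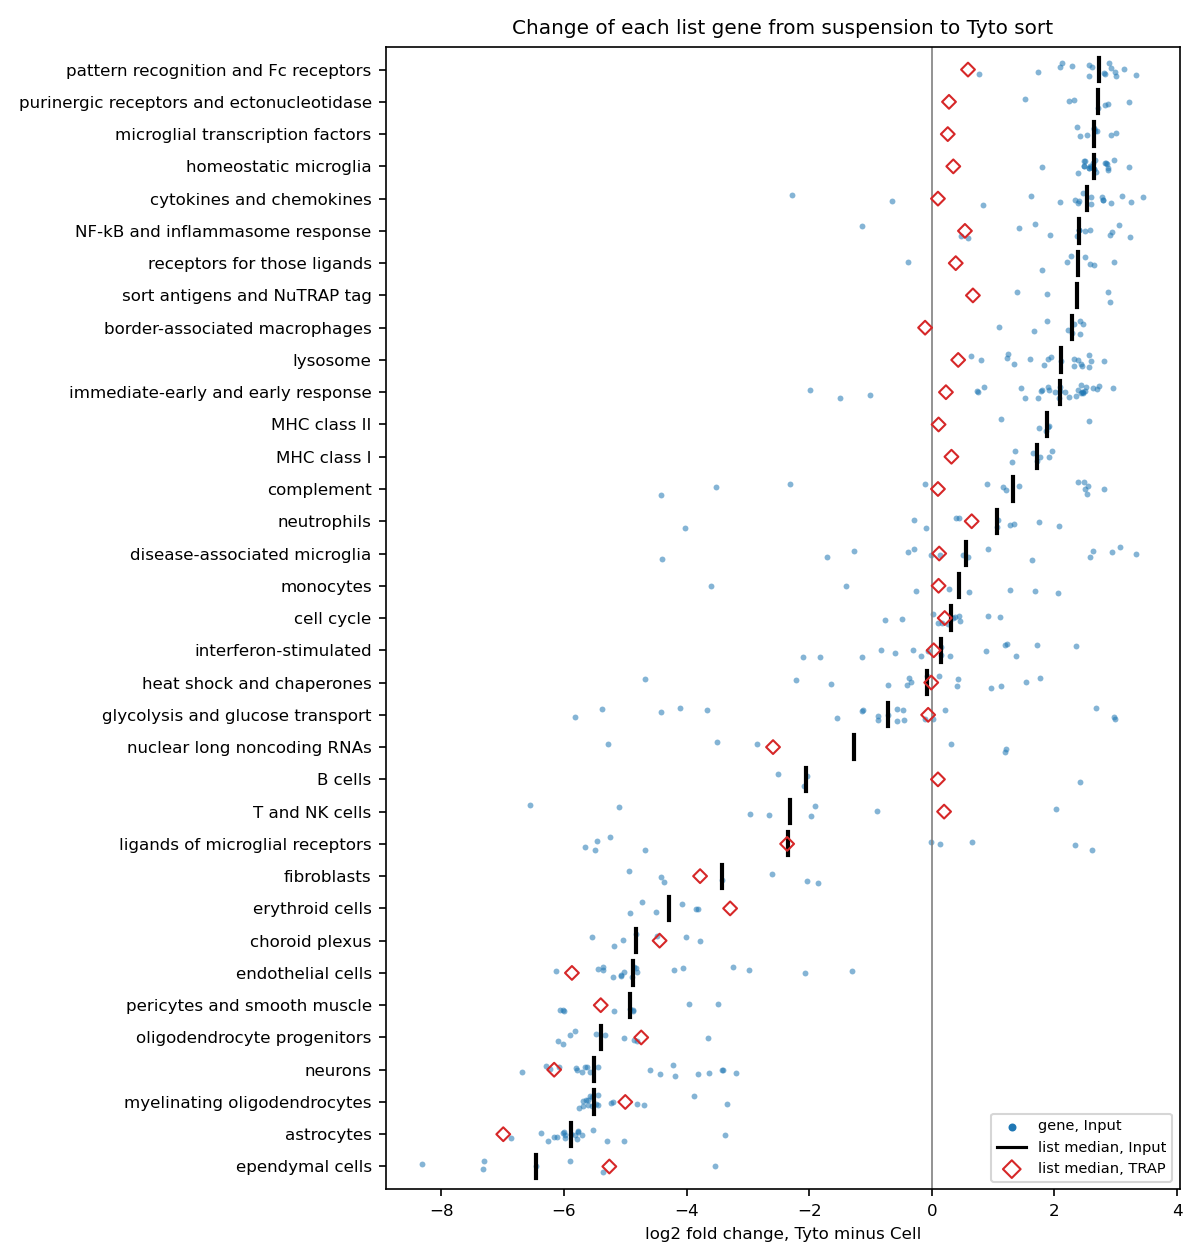
Log2 fold change (Tyto minus Cell) of each tested gene of 35 lists in the Input fraction (blue points), with the list median in Input (black bar) and in TRAP (red diamond). Lists are ordered by their Input median, from 2.72 for pattern recognition and Fc receptors to -6.45 for ependymal cells. The TRAP medians of the homeostatic, transcription factor, purinergic, and pattern recognition lists lie between 0.26 and 0.59.

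Most receptors by which microglia respond to their neighbours rose, and the ligands went both ways. Of 8 receptors 7 were called higher, against 19.8% of all tested genes. *Csf1r*, the receptor that keeps microglia alive, went from 1402 to 1826 CPM in Cell-Input to 9586 to 10539 CPM in Tyto-Input (2.65). *Axl*, a receptor for Gas6, was the exception at -0.38. Of 10 ligands 5 were called lower, 2 higher, and 3 were not called. Among all tested genes 32.8% were called lower and 19.8% higher, so the share of ligands called higher was that of the background. Their summed level was higher in Tyto-Input, at 1375 to 1681 CPM against 703 to 793 CPM in Cell-Input, with *Tgfb1* holding 35.7% of it in Tyto-Input, and their median log2 fold change of -2.34 became 0.26 with the filter of 10 counts. *Cx3cl1*, the neuronal ligand of CX3CR1, lay at 86.6, 58.7, 66.7, and 64.9 CPM in Cell-Input and at 1.80, 2.64, 0.583, 1.39, and 0.467 CPM in Tyto-Input (-5.65 ± 0.50, adjusted p = 3.17e-09, edgeR). *Il34*, the CSF1R ligand of neurons, and *Cd200*, an inhibitory signal to microglia, fell by 5.25 and 5.46 on the log2 scale, while *Csf1*, the other CSF1R ligand, did not pass the test (0.13). *Tgfb1* rose with its receptors, from 71.7, 96.9, 111, and 91.3 CPM to 598, 553, 607, 470, and 619 CPM (2.62 ± 0.18, adjusted p = 5.44e-11, edgeR), whereas *Tgfb2* (-4.67) and *Tgfb3* (-5.49) fell.

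Early-response genes were higher in the sorted cells. Of 32 tested, 26 were called higher and 3 lower, against 19.8% and 32.8% of all tested genes, with a median of 2.09. *Fos* lay at 649, 856, 619, and 595 CPM in Cell-Input and at 3087, 3029, 3873, 3374, and 3982 CPM in Tyto-Input (2.35 ± 0.16, adjusted p = 4.51e-11, edgeR). *Jun*, its partner in the AP-1 factor, lay at 986, 1122, 1004, and 897 CPM and at 4197, 4039, 5359, 4604, and 5544 CPM (2.24 ± 0.14, adjusted p = 1.15e-11, edgeR). The groups did not overlap in either. The 3 that fell were *Nr4a3*, *Nr4a2*, and *Dusp5*, and *Dusp5* lost its call without Cell-Input replicate 1 (-0.69) or 2 (-0.76) or without Tyto-Input replicate 4 (-0.97).

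Cytokine genes rose as well, with 15 of 18 tested called higher, 1 lower, and a median of 2.53. *Il1b* lay at 16.3, 16.9, 5.93, and 13.7 CPM in Cell-Input and at 71.2, 137, 142, 85.4, and 191 CPM in Tyto-Input (3.25 ± 0.42, adjusted p = 7.40e-07, edgeR). *Tnf* lay at 33.4, 14.8, 12.2, and 12.8 CPM and at 76.2, 94.9, 115, 102, and 162 CPM (2.59 ± 0.38, adjusted p = 4.12e-06, edgeR). Mouse 946 held the highest *Tnf* of the suspensions and mouse 945 the highest *Tnf* and *Il1b* of the sorted cells. *Il10*, the anti-inflammatory cytokine, had the largest log2 fold change of the list, 3.45, at 0.165 to 0.841 CPM in Cell-Input and 2.31 to 7.62 CPM in Tyto-Input. Of 15 genes of NF-kB and the inflammasome, 12 were called higher and *Sod2*, mitochondrial superoxide dismutase, lower (-1.13). Among all tested genes, 19.8% were called higher and 32.8% lower.

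The levels of these genes were also compared relative to the 22 homeostatic genes, by scaling each library to the summed counts of that set. That set is then near 0 by construction, with a median of 0.02 over its members. On this scale 13464 of 15076 genes were called (89.3%), 17 of them higher (0.113%) and 13447 lower (89.2%), with a median of -2.59. Of the 32 early-response genes, 0 were called higher and 8 lower, and 24 were not called, with a median of -0.54. *Fos* stood at -0.26 ± 0.17 (SE, adjusted p = 0.146, edgeR), *Jun* at -0.38 ± 0.15 (adjusted p = 0.0277, edgeR), and *Fosb* at 0.11 ± 0.34 (adjusted p = 0.765, edgeR), all within 2-fold. Of the 18 cytokine genes 0 were called higher and 4 lower (median -0.14), *Il1b* standing at 0.60 ± 0.47 (adjusted p = 0.224, edgeR) and *Tnf* at -0.10 ± 0.46 (adjusted p = 0.831, edgeR). At an unadjusted p under 0.05, 0 early-response genes were higher and 19 lower, and 0 cytokine genes were higher and 5 lower. Of all tested genes, 14110 of 15076 were at that level in either direction. No other tool was run on this scale.

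The early-response genes that did fall on this scale were led by *Nr4a3* (-4.64 ± 0.69), *Nr4a2* (-4.14 ± 0.61), *Dusp5* (-3.67 ± 0.52), and *Gadd45b* (-1.89 ± 0.37). *Nr4a3*, an orphan nuclear receptor, was low throughout, at 5.40, 7.01, 2.97, and 3.35 CPM in Cell-Input and 0.514, 2.64, 0.583, 0.331, and 1.87 CPM in Tyto-Input. Among cytokines the largest falls were those of *Lif* (-4.87 ± 0.93), *Ccl5* (-3.30 ± 0.51), *Cxcl1* (-1.78 ± 0.57), and *Cxcl10* (-1.04 ± 0.58, adjusted p = 0.0952, edgeR). *Lif*, a neuropoietic cytokine, was at 1.74, 2.03, 2.29, and 1.92 CPM in Cell-Input and at 0, 0.0910, 0.0834, 0.727, and 1.09 CPM in Tyto-Input. *Cxcl10*, an interferon-inducible chemokine, lost its call when any of 6 libraries was left out (-1.07 to -0.67), namely Cell-Input replicate 1 or 2 or Tyto-Input replicate 1, 2, 3, or 4.

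**Figure D4:**
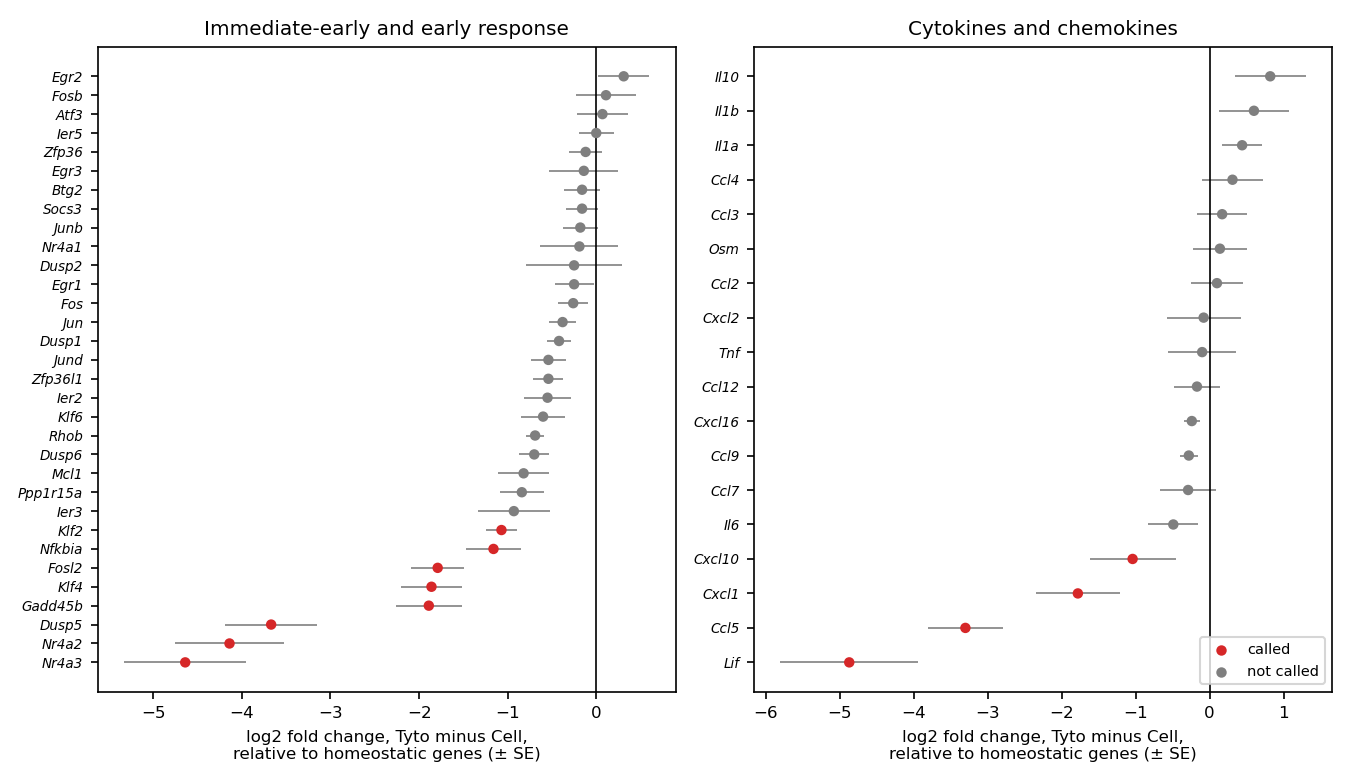
Log2 fold change ± SE (Tyto minus Cell) relative to the homeostatic genes, for 32 early-response genes (left) and 18 cytokine and chemokine genes (right), with called genes in red. *Nr4a3* at -4.64 and *Lif* at -4.87 are at the bottom, and no gene is called above 0.

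Of the 17 genes above the homeostatic set, 11 had at most 3 counts in each Cell-Input library. The other 6 were *Cd180*, *Adam3*, *Glrp1*, *Duoxa1*, *1700110I01Rik*, and *Olfr111*. In Cell-Input *Cd180* had a mean of 24.5 CPM, and the rest were near the floor, with means of 0.058 to 0.763 CPM. *Cd180* stood at 1.08 ± 0.27 (adjusted p = 8.20e-04, edgeR). Among all tested genes 89.2% were called lower on this scale, with a median of -2.59. Of the 9 border-associated macrophage genes 2 were called lower on this scale and 7 were not called, with a median of -0.40. *Mrc1* stood at -0.26 ± 0.29 (adjusted p = 0.394, edgeR) and *Lyve1* at -1.57 ± 0.41 (adjusted p = 1.31e-03, edgeR). Of 19 lysosomal genes 6 were called lower and 13 were not called (median -0.51), and of 7 MHC class I genes 2 were called lower and 5 were not called (median -0.90). The share called lower was under the 89.2% of all tested genes in each of these lists.

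Genes of disease-associated microglia, interferon response, and heat shock went both ways. Of 16 disease-associated genes 6 were called higher and 3 lower, against 19.8% and 32.8% of all tested genes. *Lpl*, lipoprotein lipase, rose from 5.50 to 9.04 CPM to 48.8 to 81.4 CPM (3.07), whereas *Apoe*, the lipid carrier that astrocytes also make, lay at 3685, 3980, 4086, and 4424 CPM in Cell-Input and at 3074, 3720, 3927, 2692, and 3076 CPM in Tyto-Input and overlapped (-0.29 ± 0.18, adjusted p = 0.138, edgeR). *Fabp5*, a fatty acid binding protein, fell by 4.40. Of 17 interferon-stimulated genes 5 were called higher and 3 lower, with a median of 0.15 that turned to -0.17 with DESeq2's size factors and was below 0 without Tyto-Input replicate 1 (-0.13) or 3 (-0.06). *Ifit1*, an RNA-binding antiviral protein, lay at 10.1, 13.4, 12.9, and 9.43 CPM in Cell-Input and at 5.52, 6.82, 6.58, 4.10, and 3.19 CPM in Tyto-Input (-1.13 ± 0.34, adjusted p = 4.52e-03, edgeR), while *Bst2*, which tethers virions, had a log2 fold change of 1.72.

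Of 15 heat shock and chaperone genes 3 were called higher and 3 lower, against 19.8% and 32.8% of all tested genes, so the share called higher was that of the background. *Hspa1b*, an inducible Hsp70, lay at 152, 72.1, 53.6, and 33.2 CPM in Cell-Input and at 127, 614, 51.01, 62.02, and 278 CPM in Tyto-Input, so the groups overlapped and mouse 69 decided the value. The log2 fold change of *Hspa1b*, 1.54 ± 0.63 (adjusted p = 0.0318, edgeR), became 0.64 without that mouse (Tyto-Input replicate 2) and was then not called, and *Hspa1a* is a near-identical copy that may share its reads. *Hsp90aa1*, *Hsph1*, and *Hspb1* fell by 1.65, 2.22, and 4.68 on the log2 scale.

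Genes of glucose use went both ways. Of 21, 3 were called higher and 8 lower, shares near the 19.8% and 32.8% of all tested genes. *Slc2a5*, the fructose transporter that microglia express, lay at 64.9, 85.3, 96.9, and 95.3 CPM in Cell-Input and at 722, 673, 650, 652, and 715 CPM in Tyto-Input (2.99 ± 0.18, adjusted p = 1.12e-11, edgeR). *Slc2a1*, the glucose transporter of the blood-brain barrier, lay at 652, 1288, 1060, and 902 CPM and at 87.7, 71.03, 68.1, 88.5, and 69.1 CPM (-3.66 ± 0.23, adjusted p = 2.65e-11, edgeR). The hexokinases *Hk2* and *Hk3* rose by 2.68 and 2.98 and *Hk1* fell by 1.14. The isoenzymes *Aldoc*, *Eno2*, *Pfkp*, and *Pfkm* fell by 5.82, 5.38, 4.42, and 4.10, whereas *Pfkl* (0.21), *Ldhb* (0.02), and *Ldha* (-0.12) did not pass the test.

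Housekeeping groups shifted less. Of 80 cytosolic ribosomal protein genes tested 9 were called higher and 0 lower (edgeR), with a median of 0.69, against 19.8% higher and 32.8% lower among all tested genes, so the share called higher was under that of all genes. The groups did not overlap in 68 of the 80, against 76.7% of all tested genes. The lowest log2 fold change of the ribosomal list was -0.12. Of all 15076 tested genes 12135 had an unadjusted p under 0.05 in either direction. Of the 80 ribosomal genes 76 were higher at that level and 0 lower. DESeq2's test called 1 of them higher and limma 8, both with 0 lower. Of 74 oxidative phosphorylation genes 1 was called higher and 26 lower, with a median of -0.90, and the share called lower was near the 32.8% of all tested genes. Of the 74, 4 had a log2 fold change above 0, against 7665 of the 15076 tested genes. The groups did not overlap in 69 of the 74, against 76.7% of all tested genes. Of 12 cell cycle genes 1 was called, against 52.6% of all tested genes in either direction. It was *Cdk1* (1.11), whose call was lost with DESeq2's size factors (0.80), and without Cell-Input replicate 3 (0.96) or Tyto-Input replicate 1 (0.95), 2 (0.91), or 3 (0.99). *Mki67* stood at 0.16 and *Top2a* at 0.02, neither called.

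Nuclear long noncoding RNAs differed from each other. Input came from the supernatant of a centrifuged lysate, and how much nuclear RNA it kept was not tested. *Malat1* lay at 161, 202, 166, and 229 CPM in Cell-Input and at 153, 182, 253, 431, and 157 CPM in Tyto-Input, overlapping and not called (0.31 ± 0.75, adjusted p = 0.71, edgeR). *Neat1*, the scaffold of paraspeckles, had a log2 fold change of 1.22, which dropped under the limit with DESeq2's size factors (0.89). *Meg3*, which neurons express, fell by 3.50 on the log2 scale.

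The pull-down fractions of the same preparations give a second readout, in which the suspension too has been enriched for ribosomes of *Cx3cr1*-expressing cells. Tyto-TRAP differed from Cell-TRAP in 2778 of 13593 genes (20.4%), with 147 higher (1.08%) and 2631 lower (19.4%), and the higher count fell to 93 without Cell-TRAP replicate 2. Called in both fractions were 2717 genes, 34.3% of the Input calls and 97.8% of the TRAP calls, of which 2594 were lower and 116 higher in both. The 2920 genes called higher in Tyto-Input and tested in TRAP had a median log2 fold change of 0.35 in TRAP, and the 3662 called lower and tested had one of -3.16. Both fractions came from the same mice, so they are no independent repeats.

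Microglial genes differed little between Tyto-TRAP and Cell-TRAP. Of the 22 homeostatic genes 0 were called in TRAP by edgeR's test, DESeq2, or limma, with a median of 0.35 and a summed level of 57165 to 61940 CPM in Cell-TRAP and 74926 to 80370 CPM in Tyto-TRAP. At an unadjusted p under 0.05, 17 of the 22 were higher and 1 lower in TRAP. Of all genes tested in TRAP, 8149 of 13593 were at that level in either direction. *Cx3cr1* stood at 2515 to 2912 CPM in Cell-TRAP and 4055 to 4798 CPM in Tyto-TRAP (0.74 ± 0.07, adjusted p = 1.25e-08, edgeR), a difference beyond the spread but under 2-fold. *Tmem119* stood at 2817 to 3388 CPM and 2697 to 3469 CPM (-0.10 ± 0.07, adjusted p = 0.268, edgeR). *Cd180* (1.42) and *Il1b* (1.65) were called higher in TRAP as in Input.

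Genes of other cell types were lower in Tyto-TRAP as in Tyto-Input. All 19 astrocyte genes and all 20 neuronal genes were called lower in TRAP, with medians of -6.99 and -6.16. *Slc1a2* went from 600.3 to 694 CPM in Cell-TRAP to 1.86 to 12.3 CPM in Tyto-TRAP. Of 17 myelinating oligodendrocyte genes tested in TRAP 15 were called lower, and the 2 others were *Cnp* and *Mag*, chosen after their values were seen. *Cnp* lay at 114 to 125 CPM in Cell-TRAP and 106 to 118 CPM in Tyto-TRAP (-0.10 ± 0.06, adjusted p = 0.162, edgeR) against -3.34 in Input, and *Mag*, an adhesion protein of the inner myelin membrane, had -0.37 in TRAP against -3.88 in Input. *Mbp* fell by 1.67 in TRAP and by 4.81 in Input.

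**Figure D5:**
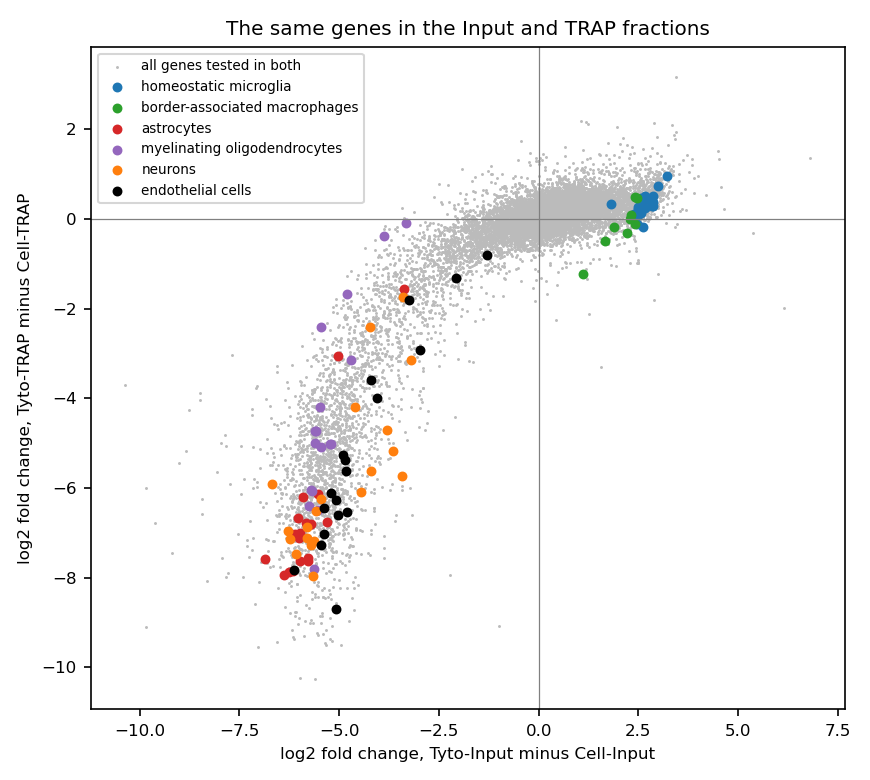
Log2 fold change of Tyto against Cell in the Input fraction (x axis) and in the TRAP fraction (y axis) for the genes tested in both, with 6 gene lists in colour. Homeostatic genes (blue) lie at 1.80 to 3.21 on the x axis and between -0.17 and 0.95 on the y axis. Astrocyte and neuronal genes are low on both axes, and *Cnp* and *Mag* are the purple points near 0 on the y axis.

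In 7 genes the fractions were called in opposite directions. *Actn2*, *Fam151a*, *Lyve1*, and *Tmem150b* were higher in Tyto-Input and lower in Tyto-TRAP, and *Cabyr*, *Cdkl4*, and *Zfand4* were the reverse, with mean levels under 10 CPM in both fractions except for *Lyve1*. *Lyve1* stood at 74.3 to 236 CPM in Cell-TRAP and at 40.96 to 72.7 CPM in Tyto-TRAP (-1.23 ± 0.32, adjusted p = 2.39e-03, edgeR), a fall that lost its call without Cell-TRAP replicate 1 (-0.85). Of the 9 border-associated macrophage genes *Lyve1* alone was called in TRAP, and their median was -0.11.

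Libraries from other sort methods show how much of the remaining RNA differs between sorters. The FACSAria, a droplet sorter, was gated on the same markers, and 3 of its mice also gave Tyto-Input libraries. Tyto-Input and FACSAria-Input differed in 35 genes (0.232%), 30 higher in Tyto (0.199%) and 5 lower (0.0332%). Of the 18 myelinating oligodendrocyte genes 8 were among the 30, with *Cldn11* (3.29), *Ermn* (2.60), *Ugt8a* (3.21), and *Hapln2* (4.56) as examples, and of the 19 astrocyte genes 1, *Acsbg1*. No member of the other lists was called, and 7713 of the 15076 tested genes lay above 0. Erythroid genes lay above 0 in 6 of 6 cases (median 2.39), at a summed 179 to 426 CPM in Tyto-Input and 23.3 to 93.3 CPM in FACSAria-Input. Neutrophil genes did so in 11 of 11 (median 1.28) and ependymal genes in 0 of 7 (median -2.48). The summed levels of the neutrophil and of the ependymal list overlapped between the sorts. The 5 genes with the smallest adjusted p were *Cntn2* (2.99 ± 0.46), *Adamts4* (2.63 ± 0.40), *Ttll7* (3.12 ± 0.51), *Tubb4a* (2.63 ± 0.44), and *Gpr37* (3.07 ± 0.55), and *Adamts4*, *Tubb4a*, and *Gpr37* are known in oligodendrocytes. *Cntn2*, an adhesion protein of the myelinated axon, lay at 5.85, 17.8, 6.67, 7.27, and 6.69 CPM in Tyto-Input, with mouse 69 apart, and at 0.500 to 2.06 CPM in FACSAria-Input.

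The number of these calls depended on the fit. DESeq2's test called 73 higher and 37 lower, and limma 40 higher and 3 lower. With the shared mouse as a block (3 mice), edgeR called 0 genes, and 791 of 12416 were at an unadjusted p under 0.05. Without FACSAria-Input replicate 1 or 2, edgeR called 0 genes (947 and 904 at an unadjusted p under 0.05), without replicate 3, 1 higher and 2 lower, and without replicate 4, 156 higher and 26 lower. Of the 22 homeostatic genes 0 were called between these sorts by edgeR, DESeq2, or limma, and 0 were at an unadjusted p under 0.05, with a median of -0.08 and a range from -0.24 to 0.13. Of all tested genes, 1060 of 15076 were at that unadjusted level by edgeR. Against autoMACS-Input, a magnetic column sort, Tyto-Input differed in 557 genes (3.69%), with 307 higher (2.04%) and 250 lower (1.66%).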

How the data were processed

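RNA-seq libraries of poly(A) RNA from the cleared lysate (Input) and from the pulled-down ribosomes (TRAP) were taken from unsorted cell suspensions and from sorted microglia. The authors deposited expected counts per gene, aligned to mm10 in Strand NGS with duplicate reads removed and and the table keeps a gene when all samples of some group exceeded 5 reads. Of the values 33.2% were whole, and all were rounded. Counts were fitted with edgeR 4.0.16 (R 4.3.3), with TMM scaling, a quasi-likelihood test, Benjamini-Hochberg adjustment over all genes tested, and all sort groups of a fraction in 1 model. SE is the absolute log2 fold change over the root of the test statistic F. The fit was tested on simulated counts in which far fewer genes changed than here, as many up as down. That simulation did not test the zero point of the log2 scale. A gene was called at an adjusted p under 0.1 and a fold above 2. Alternatives used DESeq2 1.42.0, limma 3.58.1 (log2(CPM + 1)), other filters, fewer samples, sex as a factor, and each library left out.

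The comparison and the gene lists were chosen with earlier results of these data known. Genes named were the 10 largest rises and 10 largest falls with at least 50 CPM in the higher group and no overlap, the first 4 tested members of each list, members called against their list's median, the 4 largest called changes relative to homeostatic genes in the early-response and cytokine lists, and the 5 smallest adjusted p against FACSAria-Input. Other list members were chosen after their values were seen, as were the 2 promoters. List genes missing from the table were not analysed here. Where a gene had several promoter windows, the first was used. Tyto-Input and FACSAria-Input shared 3 mice by the number in their titles, with correlations of deviations of 0.006 to 0.325 for the same mouse and a mean of -0.080 for other mice. Sex came from the study's own records. Coordinates are those of the deposited table. Values of some genes are not reported here.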

Additional observations from a re-analysis of the deposited data

Results flagged for a closer look

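In 12 of 148 tested sets of libraries, each a group's values for 1 gene or list, the highest or lowest library stood apart, meaning that its gap to the next divided by the range of the group was above Dixon's critical value for that number of libraries. Chance gives about 1 in 20.

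In Cell-Input, mouse 946 was lowest in summed complement (2067 CPM against 2445 to 2479, ratio 0.916) and lysosomal genes (11314 against 12826 to 12918, ratio 0.942), in *Gjb6* (228 CPM, ratio 0.898), and in *C1qc* (490 CPM, ratio 0.874). The same mouse was highest in *Tnf* (33.4 CPM, ratio 0.874). Mouse 949 was highest in erythroid genes (6061 CPM against 3690 to 3981, ratio 0.877) and in *Hba-a1* (2983 CPM, ratio 0.851). Mouse 948 was highest in pericyte and smooth muscle genes (649 CPM against 468 to 493, ratio 0.860).

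In Tyto-Input, mouse 823 was lowest in ligands of microglial receptors (1375 CPM against 1633 to 1681, ratio 0.843), of which *Tgfb1* held 35.7%, and in *Ctss* (5213 CPM, ratio 0.747). Mouse 69 was highest in cell cycle genes (149 CPM against 140.2 to 143, ratio 0.730) and in *Cntn2* (17.8 CPM, ratio 0.881).

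The effect of the sort differed between the Tyto and the FACSAria in 35 genes by edgeR's test of that difference. The 5 with the smallest adjusted p were all higher in Tyto-Input, with log2 fold changes of 2.63 for *Adamts4*, 2.99 for *Cntn2*, 3.07 for *Gpr37*, 3.12 for *Ttll7*, and 2.63 for *Tubb4a*.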

How the results depend on the processing

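No called gene among the named ones changed its direction under an alternative, whereas the medians of 5 lists changed sign as given here and in the report. No paired analysis was possible because no mouse gave both a Tyto and a Cell library, so Tyto against Cell has no replicate block. Between Tyto-Input and FACSAria-Input the fit with the mouse as a replicate block called 0 genes higher and 0 lower, against 30 and 5.

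A stricter filter, which kept the 10332 Input genes that no sample measured under 10 counts, gave 1621 higher and 1794 lower for Tyto-Input against Cell-Input, 1 higher relative to homeostatic genes, 31 higher and 447 lower in TRAP, and 0 and 0 against FACSAria-Input (368 at an unadjusted p under 0.05). In TRAP, 86 genes were higher with DESeq2's size factors, 86 with DESeq2's Wald test, 85 with only the compared groups in the fit, and 45 with limma. Against FACSAria-Input the Wald test called 73 higher and 37 lower, limma 3 lower, a sex term 3 lower, and the fit of the compared groups alone 0 and 0 (876 at an unadjusted p under 0.05).

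With each library left out in turn, calls ranged from 2649 to 3009 higher and 4901 to 5091 lower for Tyto-Input against Cell-Input, from 14 to 24 higher and 13356 to 13566 lower relative to homeostatic genes, from 93 to 170 higher and 2611 to 2787 lower in TRAP, and from 0 to 156 higher and 0 to 26 lower against FACSAria-Input. The TRAP count of 147 fell most without Cell-TRAP replicate 2 (93). Against FACSAria-Input, leaving out Tyto-Input replicate 1 left 6 higher and 0 lower, and leaving out replicate 5 gave 54 and 4. The cause was not tested.

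For Tyto-Input against Cell-Input, named genes stayed on the same side of the threshold in 1138 cases under other settings and 1583 with a library left out, lost a call in 34 and 26, and gained one in 8 and 2. Among those that lost a call under some setting were *Cd2*, *Cd3g*, *Cd8a*, *Faim3*, *Mpo*, *S100a4*, and *Neat1*. The medians of T and NK cells (-2.31 to 1.64), B cells (-2.06 to 2.04), and ligands (-2.34 to 0.26) changed sign at 10 counts, where fewer members remained, and that of cell cycle genes went from 0.31 to -0.01 with DESeq2's size factors. Counts limit the genes at or under 3 counts in every Tyto library, for which no fold is given.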
